A study of Homo sapiens with 7 samples.

Results

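The transcripts described here encode the subunits of the transcription factor NF-κB, the inhibitors that hold it back, and the ubiquitin ligase BIRC3. They were the 10 genes whose symbol in the deposited table equalled NFKB1, NFKB2, REL, RELA, RELB, NFKBIA, NFKBIB, NFKBIE, TNFAIP3 or BIRC3. All 10 were found among the 21305 genes of the table. RNA was sequenced from 501Mel, a human melanoma line, in which doxycycline had switched on a short hairpin RNA in every library. In 3 of the 7 libraries, which served as control, the hairpin was directed at lacZ, a gene these cells lack (shlacZ). The others carried a hairpin called sh4 (n = 2) or sh8 (n = 2), and both of these are directed at the long non-coding RNA GRASLND. By the methods of the study the hairpins were delivered by lentivirus and cells were selected with puromycin, so the lines were pools and not clones, and no library here received interferon. The labels do not say whether replicates were separate cultures, and the p-values then measure only the spread between these libraries, which may be technical.

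NF-κB factors are dimers of related proteins. In the canonical arm, RELA or REL pairs with the product of NFKB1 and is held in the cytoplasm by inhibitors of the IκB family until a kinase complex of IKBKB, CHUK and IKBKG marks the inhibitor for destruction. In the non-canonical arm, the kinase MAP3K14 (NIK) activates CHUK, which triggers the cutting of the NFKB2 precursor so that its product can enter the nucleus with RELB. TRAF2, TRAF3, BIRC2 and BIRC3 keep MAP3K14 low in resting cells. Several inhibitors and subunits are themselves targets of NF-κB, and much of the control of the pathway acts on protein, which RNA counts do not show.

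The values are normalized counts, that is, reads per gene divided by the size factor of the library. Depth ranged from 13337317 to 22855232 reads per library. The first shlacZ library stood apart from the other control libraries: the SD of the log2 difference over the 15420 genes tested was 0.635 and 0.624 against them, compared with 0.466 between those libraries. Results that turned on it are given with and without it. Of 8 genes that mark the melanocytic lineage, all 8 were in the table, and of 12 markers of blood cells, fibroblasts, keratinocytes and endothelium only LYZ and COL1A1 were. In bulk RNA, fewer cells of a type and less RNA per cell cannot be told apart.

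GRASLND itself was lower with either hairpin. It had 309, 329.9 and 289.7 normalized counts with shlacZ, 175 and 131 with sh4, and 227 and 163 with sh8, so that every knockdown library lay below every control library. The log2 fold change was -0.85 ± 0.19 (SE) for both hairpins together (limma, adjusted p = 0.0402), -1.02 ± 0.21 for sh4 (adjusted p = 0.00662) and -0.68 ± 0.21 for sh8, which did not pass (adjusted p = 0.110). For both hairpins together the call was lost without any 1 library other than the first sh8 library (limma adjusted p from 0.0637 to 0.178), and for sh4 without the second sh4 library (0.0774). The hairpins did not differ detectably in GRASLND (sh4 minus sh8 -0.34, 95% interval -0.84 to 0.16, limma adjusted p = 0.421).

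Many NF-κB genes carry the short DNA element that NF-κB binds, the κB site, near their own start. The consensus searched was GGG, a purine, any pair of bases, a pair of pyrimidines and CC, a run of 10 letters on either strand, within the 250 bases before each RefSeq start (GRCh38.p14). Of the members, 8 had an entry in the RefSeq promoter table, with 13 starts in all. A match stood before 8 of the 13 starts, in 7 of the 8 genes, and before neither start of RELA. NFKB2 has 3 starts in the table, and the most upstream one had 0 matches. RELB and NFKBIE had no entry. Of all 35116 promoters in that table, 3498 (9.961%) held a match. The windows below surround matches of the genes that changed, with NFKBIA and REL for comparison. Other NFKB2 matches, which began 78 and 176 bases before a start, are not printed. All 30 bases of the NFKB2 middle-start window and of the REL window lie in exons of the same gene as annotated in GENCODE. In the downstream NFKB2 window 11 bases do, and in the TNFAIP3 window 4. They are read along the gene's strand, capitals mark the matched letters, and overlapping matches are joined.
NFKB1, chr4:102501300-102501329, plus strand: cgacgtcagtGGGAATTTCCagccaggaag
NFKB2, middle start, chr10:102394462-102394491, plus strand: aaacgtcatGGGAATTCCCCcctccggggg
NFKB2, most downstream start, chr10:102395674-102395703, plus strand: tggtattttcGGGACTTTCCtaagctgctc
TNFAIP3, chr6:137867188-137867217, plus strand: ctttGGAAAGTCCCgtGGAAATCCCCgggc
NFKBIA, chr14:35404811-35404840, minus strand: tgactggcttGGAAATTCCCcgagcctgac
REL, chr2:60881518-60881547, plus strand: gtcagccgcGGGAAATTCCCctcccgccag
The match in the NFKB1 window began 49 bases before the start, that of NFKBIA 81 bases, and the pair in TNFAIP3 67 and 55 bases before it. A match is a description of the letters and not a measured binding site. NFKB1, NFKB2, TNFAIP3, NFKBIA and REL all hold one, and their RNA levels are described in turn in the next paragraphs.

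Levels were compared between genes only after division by the length of the canonical transcript, as normalized counts per kb. TNFAIP3, which encodes the ubiquitin-editing inhibitor A20, was the most abundant member in control cells at 812 ± 146 (SD, n = 3) per kb. RELA followed at 434 ± 63.8, NFKBIB at 352 ± 83.3 and NFKB1 at 276 ± 33.7, and each of these neighbours overlapped the next within 1 SD. NFKBIA at 101.4 ± 32.9, REL at 99.96 ± 3.64 and NFKB2 at 90.6 ± 15.6 could not be ordered beyond their spread. NFKBIE had 47.9 ± 17.0, RELB 10.8 ± 2.58 and BIRC3 only 0.395 ± 0.243 per kb. Per kb, the non-canonical subunits were thus scarcer than their canonical partners, NFKB2 below NFKB1 and RELB below RELA, in the control group. Transcripts used in these cells may differ in length from the canonical ones, which would move the values per kb.

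**Figure D1:**
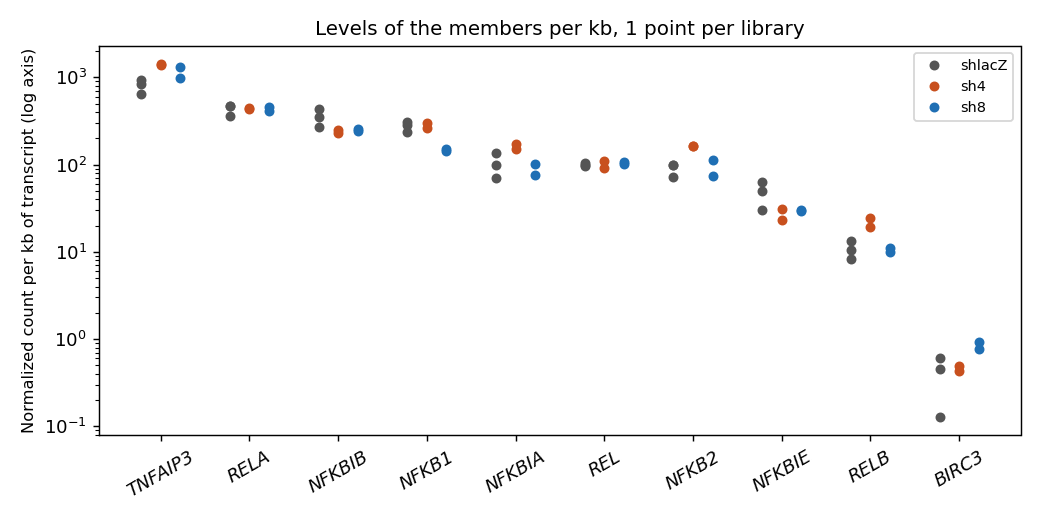
Normalized count per kb of canonical transcript (log axis) for each of the 10 members, ordered by the control mean, with 1 point per library for shlacZ (grey, n = 3), sh4 (orange, n = 2) and sh8 (blue, n = 2). TNFAIP3 is highest in every group, RELB and BIRC3 lowest, and NFKB2 lies at the level of REL in shlacZ and sh8 and above it in sh4.

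With sh4, NFKB2 and TNFAIP3 passed the test as higher and none of the tested members as lower. With sh8, NFKB1 passed as lower and none as higher. Short of the test, TNFAIP3 lay above and NFKBIB below every control library with sh8 as with sh4. Taken over both hairpins together, none of the 9 members with enough reads passed the test. A gene passed at an adjusted p under 0.05, from limma on log2(normalized count + 1) with Benjamini-Hochberg adjustment over all 15420 genes with a mean of at least 10. BIRC3 lay under that minimum. For the hairpins together 4.61% of all genes tested passed (1.99% when the absolute log2 value also had to exceed 1), against 0 of 9 members. 3 members (NFKBIB, NFKBIE and TNFAIP3) had an unadjusted p under 0.05, and limma-voom on recovered reads also called 0. In sh4 2 of 9 members were higher and 0 lower, against 10.5% and 11.9% of all genes. In sh8 0 were higher and 1 lower, against 1.38% and 1.54%. Between the hairpins 1 member, NFKB1, was higher in sh4 and 0 were lower, where 3.67% and 3.33% of all genes were. None of the members met the stricter rule that also asks for an absolute log2 value above 1, which 8.16% of genes met for sh4, 1.15% for sh8 and 3.19% between hairpins. The median log2 fold change of the 9 members was 0.03 in sh4 and -0.0018 in sh8, beside -0.0076 and -0.0099 over all genes. The comparisons of sh4 and of sh8 share the 3 control libraries.

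**Figure D2:**
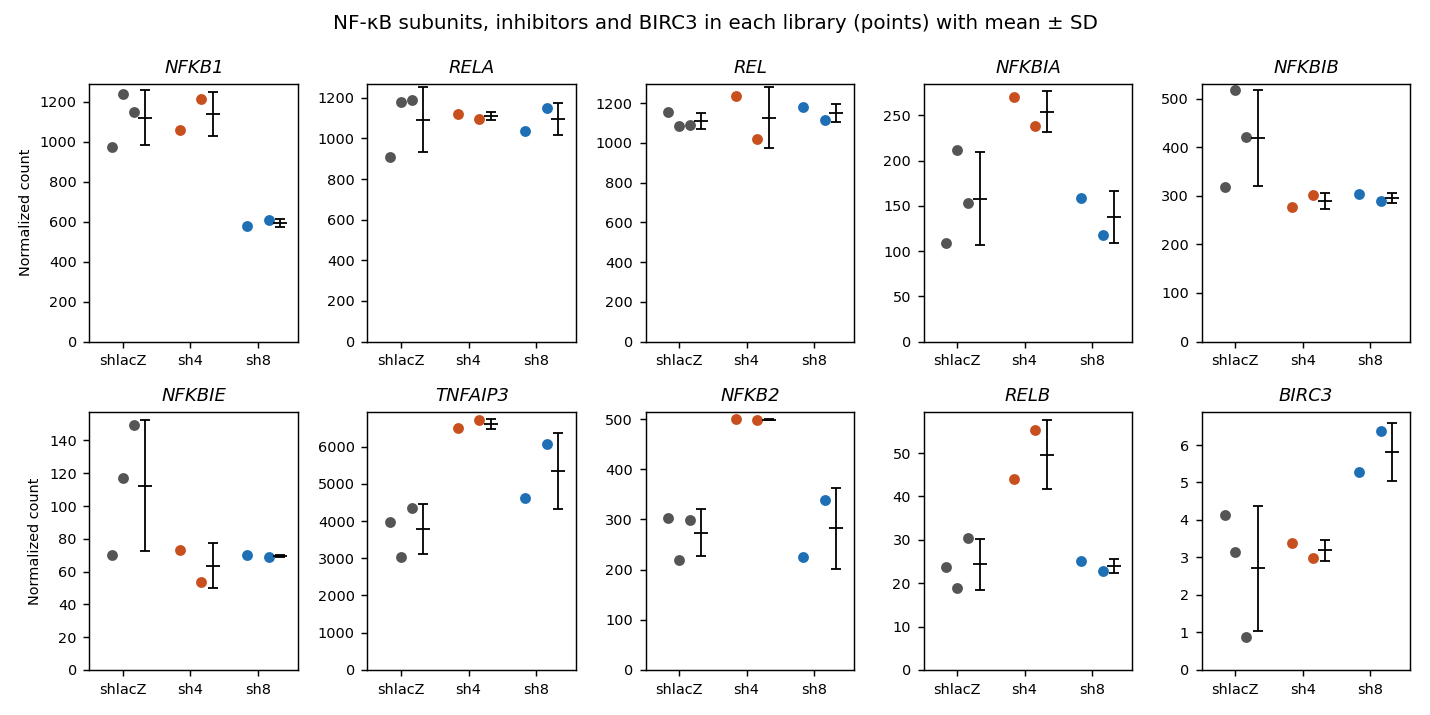
Normalized count of each member in every library (points), with the mean ± SD of the group beside them and axes that start at 0. NFKB1 is low in the 2 sh8 libraries, NFKB2, RELB and NFKBIA are high in the 2 sh4 libraries, and TNFAIP3 is above the control libraries in all 4 knockdown libraries.

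Among the canonical subunits, only NFKB1 moved, and only with sh8. NFKB1 (ENSG00000109320, chromosome 4, 102501330 to 102617302) encodes the precursor of the DNA-binding subunit that partners RELA. It had 971, 1240.1 and 1147 normalized counts with shlacZ, 1058 and 1214 with sh4, and 579 and 609 with sh8. Both sh8 libraries thus lay well below the other 5, and the sh4 libraries lay within the control range. The fall in sh8 was -0.91 ± 0.14 on the log2 scale (limma adjusted p = 0.0110), which left a mean of 0.530 of the control level, while sh4 differed from control by 0.03 (95% interval -0.29 to 0.34, limma adjusted p = 0.922). The difference between the hairpins was itself past the test (0.93 ± 0.15, limma adjusted p = 0.00779). With only 1 sh8 library left in the fit the fall was no longer called (limma adjusted p = 0.0937 without the first and 0.0998 without the second), and over all alternatives its value ran from -1.01 to -0.83. The difference between the hairpins was lost without the second sh4 library (adjusted p = 0.0918) or the first sh8 library (adjusted p = 0.0694).

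RELA and REL, the subunits that carry the activation domains of the canonical dimers, stayed close to the control level in these libraries. RELA (ENSG00000173039, chromosome 11, 65653599 to 65663090) had 906, 1180.4 and 1188 normalized counts with shlacZ, 1123 and 1094 with sh4, and 1039 and 1150.3 with sh8. REL (ENSG00000162924, chromosome 2, 60881491 to 60931612) had 1157, 1084 and 1090.0, then 1238 and 1018, then 1182 and 1118. The groups overlapped for either gene. The 95% interval of the log2 fold change ran from -0.29 to 0.36 for RELA and from -0.27 to 0.30 for REL with sh4, and from -0.31 to 0.34 and from -0.23 to 0.33 with sh8, so changes within these bounds cannot be seen at this replication. REL shares 5702 exonic bases with an unnamed lncRNA annotated on the same strand, so reads could be split between them and its counts are uncertain.

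The IκB proteins bind finished NF-κB dimers and mask them. None of the 3 IκB transcripts passed the test on the deposited normalized counts with all 7 libraries in the fit. NFKBIA (ENSG00000100906, chromosome 14, 35401079 to 35404749), the inhibitor that NF-κB itself quickly induces, had 109, 212 and 153 normalized counts with shlacZ, 269.9 and 238 with sh4, and 158 and 117 with sh8. The sh4 libraries were above all others, but with a control spread of 51.3 (SD) the log2 fold change of 0.73 ± 0.27 did not pass (limma adjusted p = 0.0816). It passed without the second shlacZ library (limma adjusted p = 0.0332) and with scaling by library total (0.0446). Without the first shlacZ library it was at 0.49, the lowest value over all alternatives, and did not pass. The difference between the hairpins, 0.89 ± 0.30, missed the threshold (limma adjusted p = 0.108). It passed in 2 alternatives, without the first shlacZ library (0.0278) and with only the sh4 and sh8 libraries in the fit (0.0312).

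NFKBIB (ENSG00000104825, chromosome 19, 38899700 to 38908893) had 319, 517 and 421 normalized counts with shlacZ, 278 and 301 with sh4, and 303 and 288 with sh8. All 4 knockdown libraries lay below all 3 control libraries, by a log2 fold change of -0.49 ± 0.17 for the hairpins together, which did not pass (limma adjusted p = 0.124). NFKBIE (ENSG00000146232, chromosome 6, 44258166 to 44265788) had 70.2, 117 and 149.6 with shlacZ, 73.4 and 53.7 with sh4, and 69.9 and 69.2 with sh8. Here the first shlacZ library fell among the knockdown libraries, and the log2 fold change for the hairpins together was -0.69 ± 0.27 (limma adjusted p = 0.161). Both values depended on which control libraries were kept. Without the second shlacZ library NFKBIB was at -0.32 (limma adjusted p = 0.429), and without the third NFKBIE was at -0.45 (limma adjusted p = 0.479). Without the first NFKBIB was at -0.67 (limma adjusted p = 0.0464) and NFKBIE at -0.99 (limma adjusted p = 0.0504) for the hairpins together. Without that first library both genes also passed with sh4 (limma adjusted p = 0.00901 and 0.0105) and with sh8 (0.0313 and 0.0470).

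TNFAIP3 (ENSG00000118503, chromosome 6, 137867214 to 137883314) encodes A20, which removes ubiquitin chains from upstream adaptors and so acts as a feedback brake on the canonical arm. It had 3967, 3039 and 4363 normalized counts with shlacZ, 6512 and 6708 with sh4, and 4629 and 6060.2 with sh8. Every knockdown library was above every control library. The rise passed with sh4 (log2 fold change 0.82 ± 0.17, limma adjusted p = 0.00771, 1.74 times the control mean). With sh8 the value was 0.50 ± 0.17 and did not pass (adjusted p = 0.153), and for the hairpins together it was 0.66 ± 0.17 and missed the threshold narrowly (adjusted p = 0.0546). The hairpins did not differ detectably (sh4 minus sh8 0.32, 95% interval -0.09 to 0.73). With 1 sh4 library left, the sh4 call was lost (limma adjusted p = 0.0549 without the first and 0.0659 without the second). For the hairpins together it passed without the first sh8 library (adjusted p = 0.0209), and without any other 1 library it did not, with adjusted p up to 0.233 and a log2 fold change of 0.51 without the second shlacZ library.

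**Figure D3:**
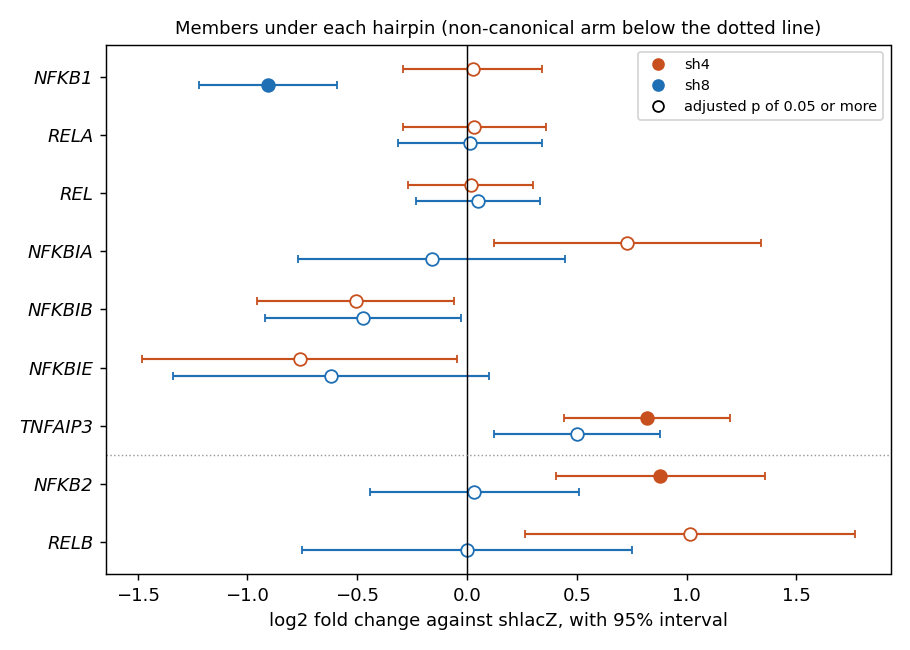
Log2 fold change against shlacZ with its 95% interval for the 9 members tested, for sh4 (orange) and sh8 (blue), where filled points passed at an adjusted p under 0.05. NFKB1 passes in sh8, at -0.91, TNFAIP3 and NFKB2 pass in sh4, at 0.82 and 0.88, and the intervals of RELA and REL span 0 with either hairpin.

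In the non-canonical arm, NFKB2 rose with sh4 and stayed within the control range in 1 of the sh8 libraries. NFKB2 (ENSG00000077150, chromosome 10, 102394110 to 102402524) encodes the precursor that inhibits RELB until it is cut. It had 302, 219 and 298 normalized counts with shlacZ, 499 and 498 with sh4, and 225 and 339 with sh8. The sh4 libraries were nearly equal and above all the others, and the sh8 libraries spread over the control range and just past it. The log2 fold change was 0.88 ± 0.21 with sh4 (limma adjusted p = 0.0161, 1.82 times the control mean) and 0.03 ± 0.21 with sh8 (adjusted p = 0.954, 95% interval -0.44 to 0.51). The difference between the hairpins, 0.85 ± 0.23, missed the threshold (limma adjusted p = 0.0585) and passed without the first shlacZ library (adjusted p = 0.0304), with only the sh4 and sh8 libraries in the fit (0.0288) and with the replicate block (0.0483). Without the first sh8 library it was 0.55 (limma adjusted p = 0.331). With 1 sh4 library left, the sh4 call was lost (limma adjusted p = 0.101 without the first and 0.0969 without the second).

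RELB (ENSG00000104856, chromosome 19, 45001461 to 45038192), the partner of the NFKB2 product, was measured from only 18 to 74 reads per library. It had 23.7, 18.9 and 30.4 normalized counts with shlacZ, 44.04 and 55.2 with sh4, and 25.0 and 22.8 with sh8. The sh4 libraries were above the rest without overlap, whereas the sh8 libraries lay inside the control range. Its log2 fold change with sh4, 1.01 ± 0.34, had the largest size of the 9 members but did not pass (limma adjusted p = 0.0554). It passed in 5 alternatives, among them limma-voom on recovered reads (adjusted p = 0.0385). The difference between the hairpins was 1.02 ± 0.37 (limma adjusted p = 0.135).

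BIRC3 (ENSG00000023445, chromosome 11, 102317484 to 102339403), a ubiquitin ligase that with BIRC2 marks MAP3K14 for destruction, was close to undetected. It had 4.13, 3.14 and 0.870 normalized counts with shlacZ, 3.39 and 2.99 with sh4, and 5.27 and 6.37 with sh8, which came from 1 to 7 reads per library. Its mean lay under the minimum of the test. With no minimum it passed in none of the comparisons, with limma adjusted p from 0.489 (sh8, log2 fold change 0.99) to 0.807 (sh4, 0.29).

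Set as a ratio within each library, the non-canonical precursor was higher relative to the canonical one with either hairpin. The ratio of NFKB2 to NFKB1 normalized counts was 0.311, 0.177 and 0.260 with shlacZ, 0.472 and 0.410 with sh4, and 0.390 and 0.558 with sh8. All 4 knockdown ratios were above all 3 control ratios, with group means of 0.249 ± 0.0681 (SD, n = 3), 0.441 ± 0.0435 (n = 2) and 0.474 ± 0.119 (n = 2). In sh4 it was NFKB2 that was higher and NFKB1 lay at the control level, and in sh8 NFKB1 was lower and NFKB2 lay near the control level. The ratio of RELB to RELA was 0.0262, 0.0160 and 0.0256 with shlacZ, 0.0392 and 0.0505 with sh4, and 0.0241 and 0.0198 with sh8. This ratio was higher in the sh4 libraries and overlapped the control in sh8. These ratios are given as a description, with no test, and a ratio within a library shows unequal levels and not which gene changed.

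**Figure D4:**
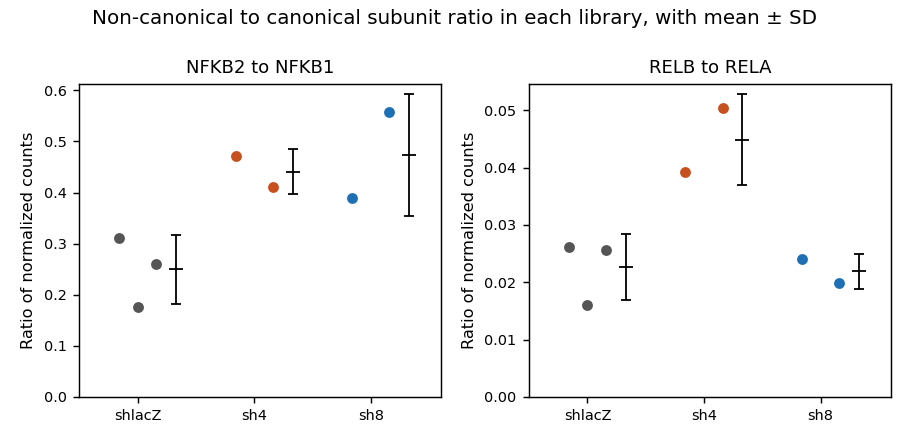
Ratio of normalized counts of NFKB2 to NFKB1 (left) and RELB to RELA (right) in each library (points), with the group mean ± SD beside them and axes that start at 0. The NFKB2 to NFKB1 ratio is 0.177 to 0.311 in shlacZ and 0.390 to 0.558 in the knockdown libraries, and the RELB to RELA ratio is above control in sh4 alone.

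The kinases that drive the arms were not detectably changed. MAP3K14 had 174, 139 and 149.6 normalized counts with shlacZ, 189 and 126 with sh4, and 175 and 153 with sh8, and the log2 fold changes were 0.0045 and 0.09 with intervals that reached at most 0.59 in size. CHUK differed from control by 0.02 with sh4 and -0.11 with sh8. IKBKB, the catalytic kinase of the canonical complex, was at 0.32 (limma adjusted p = 0.133) and IKBKG, its scaffold, at 0.50 (limma adjusted p = 0.0692) with sh4, and at -0.0099 and 0.07 with sh8. None of these values passed the test in any comparison.

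The adaptors that restrain MAP3K14 were lower with sh4. TRAF3, which links MAP3K14 to its ligases, had 926, 1113 and 1053 normalized counts with shlacZ, 647 and 525 with sh4, and 1173 and 997 with sh8. It fell with sh4 (log2 fold change -0.82 ± 0.15, limma adjusted p = 0.00416), was at 0.07 with sh8, and differed between the hairpins (-0.89 ± 0.16, limma adjusted p = 0.0114). TRAF2, an adaptor of both arms, had 283, 378 and 347 with shlacZ, 194 and 173 with sh4, and 231 and 268 with sh8. It fell with sh4 (-0.86 ± 0.18, limma adjusted p = 0.00847) and was at -0.42 with sh8 (adjusted p = 0.251). Both sh8 libraries also lay below every control library for TRAF2, and the value for the hairpins together was -0.64 (limma adjusted p = 0.0812). Without the second sh4 library the sh4 calls were lost for TRAF3 (limma adjusted p = 0.0543) and TRAF2 (0.0779), and the difference in TRAF3 between the hairpins was lost without that library (0.115) or the first sh8 library (0.105). BIRC2, the ligase, was at 0.31 with sh4 (adjusted p = 0.129) and -0.04 with sh8.

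**Figure D5:**
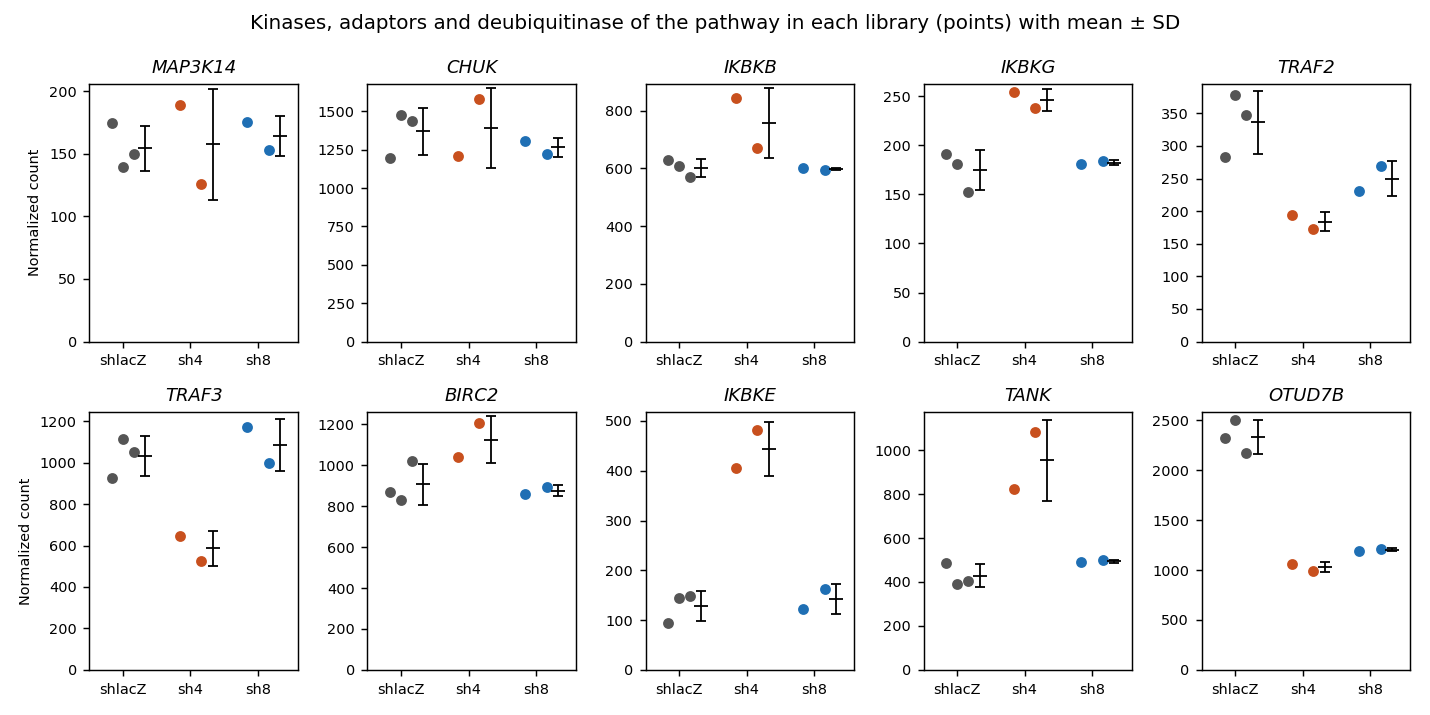
Normalized count of 10 kinases, adaptors and regulators of the pathway in every library (points), with the mean ± SD of the group beside them and axes that start at 0. TRAF3 is low and IKBKE and TANK are high in the 2 sh4 libraries, OTUD7B is low in all 4 knockdown libraries, and MAP3K14 and CHUK overlap between groups.

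The rest of the pathway was read from lists written from general knowledge, with earlier results of these data known. Of 17 canonical signalling genes tested (20 listed), 4 rose and 1 fell with sh4, where 10.5% of all genes tested rose and 11.9% fell: the receptor TNFRSF1A at 0.72, the ubiquitin ligase TRAF6 at 0.66, the kinases IRAK4 at 0.63 and RIPK1 at 0.57, and TRAF2. In sh8, in the hairpins together and between the hairpins, 0 of these 17 passed. Among all genes 1.38% were higher and 1.54% lower with sh8, and 4.61% passed for the hairpins together. Between the hairpins 3.67% of all genes were higher and 3.33% lower in sh4. The sh4 calls of TNFRSF1A, IRAK4 and RIPK1 were lost without either sh4 library (limma adjusted p from 0.110 to 0.224) and in some fits without a control or sh8 library (0.0532 to 0.0873), and that of TRAF6 without the second (0.0682). The median log2 fold change of the list was 0.14 with sh4 and 0.10 with sh8. Of 8 non-canonical signalling genes tested (9 listed), TRAF3 alone passed with sh4 and none with sh8. Between the hairpins the receptor TNFRSF12A also passed, at 1.56 (limma adjusted p = 0.0189), with 51.6, 57.6 and 87.9 normalized counts with shlacZ, 87.0 and 106 with sh4, and 32.95 and 30.9 with sh8. That difference was lost without any 1 of the knockdown libraries (limma adjusted p from 0.0747 to 0.174).

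Of 17 other regulators tested (20 listed), 4 rose and 2 fell with sh4, 1 fell with sh8, and 1 fell for the hairpins together. Among all genes tested 10.5% rose and 11.9% fell with sh4, 1.54% fell with sh8, and 3.67% were higher in sh4 than in sh8. For the hairpins together 4.61% of all genes passed. IKBKE, a kinase related to the canonical complex, rose with sh4 by 1.80 ± 0.24 on the log2 scale (limma adjusted p = 0.00094), from 93.9, 143 and 148 normalized counts with shlacZ to 405 and 482, and had 121 and 163 with sh8. Its scaffold TANK rose by 1.15, the ubiquitin ligase PELI1 by 1.06 and RNF11, a partner of A20, by 0.40. IKBKE, TANK and PELI1 were also higher in sh4 than in sh8, by 1.65, 0.93 and 0.70, and without the second sh4 library these differences did not pass (limma adjusted p = 0.0919, 0.140 and 0.0958), nor without the first sh8 library (0.0672, 0.0938 and 0.0882). Those of TANK and PELI1 were lost also without the second sh8 library (limma adjusted p = 0.0742 and 0.0531) and with no variance trend (0.0571 and 0.0504). RNF11, at an adjusted p of 0.0495, was lost without any 1 library (from 0.0632 to 0.237). NFKBIZ, a nuclear IκB protein, fell by 0.49 with sh4, a call lost without either sh4 library (limma adjusted p = 0.0679 and 0.112), shlacZ replicate 2 or 3 (0.0506 and 0.0594), or the variance trend (0.0545). OTUD7B (Cezanne), a deubiquitinase that spares TRAF3 from degradation, was the one listed regulator that passed with each hairpin. It had 2320.1, 2508 and 2168 with shlacZ, 1063 and 994 with sh4, and 1192 and 1214 with sh8. For the hairpins together it was at -1.07 ± 0.12 (limma adjusted p = 0.00367), a call kept in all 18 alternatives. Its log2 fold change was -1.18 ± 0.12 with sh4 (limma adjusted p = 0.00020) and -0.95 ± 0.12 with sh8 (limma adjusted p = 0.00328), where it missed the threshold without the second sh8 library (0.0526) and with no variance trend (0.0524).

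The listed target genes of NF-κB did not move in one direction. Of 33 listed, 23 were in the table and 14 had a mean of at least 10, and inflammatory genes such as IL6, CXCL2 and CXCL3 lay under that minimum. With sh4, CFLAR, an inhibitor of cell death, rose by 0.70 on the log2 scale, while SOD2 (-0.39), NFKBIZ (-0.49) and the surface protein CD83 (-1.55) fell. CD83 had 173, 243 and 224 normalized counts with shlacZ, 75.7 and 67.2 with sh4, and 208 and 220.2 with sh8. Its fall held without any 1 library (limma adjusted p at most 0.0168), while CFLAR was lost without either sh4 library (0.0784 and 0.0523) and SOD2 without any 1 library other than the first shlacZ library (0.0508 to 0.196). The 1 rise and 3 falls among 14 stand beside 10.5% and 11.9% of all genes. With sh8 and with the hairpins together 0 of the 14 passed, where 1.38% of all genes were higher and 1.54% lower with sh8 and 4.61% passed together. The medians were 0.28 with sh4 and 0.06 with sh8. Called or not, 9 of the 14 were positive and 5 negative with sh4, and 8 and 6 with sh8. Over all genes 7622 were positive and 7797 negative with sh4, and 7530 and 7889 with sh8. For ICAM1, BCL2A1 and CFLAR every knockdown library lay above every control library, and for SOD2 every one lay below. Their values for the hairpins together were 0.52, 0.59, 0.51 and -0.35 (limma adjusted p from 0.0844 to 0.0899).

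The genes whose log2 levels followed NFKB2 most closely over the 7 libraries, among 12049 genes whose mean reached 50, were ZFHX2 (Pearson r 0.996), TMEM134 (0.994), ZDHHC2 (0.987), LMLN (0.987) and ANXA4 (0.984). These correlations describe 7 libraries in 3 groups, which share their size factors.

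The sh4 libraries differed from control in lineage markers as well. Of the 8 melanocytic genes 6 fell with sh4, among them DCT (-3.31), TYRP1 (-2.04), MLANA (-1.59) and PMEL (-1.27). With sh8 0 of the 8 passed. Both sh8 libraries nevertheless lay below every control library for DCT (-1.003), MLANA (-0.584), PMEL (-0.555), TYRP1 (-0.504) and SOX10 (-0.383). The limma adjusted p of these sh8 values ran from 0.0671 to 0.226. TYR and S100B had positive values with each hairpin, and neither passed. For the hairpins together 1 of the 8, PMEL, fell (-0.91, limma adjusted p = 0.0443). This call was lost without any 1 of the control or sh4 libraries (0.0718 to 0.182). Of all genes tested 11.9% fell with sh4, 1.54% fell with sh8 and 4.61% passed for the hairpins together. The blood cell gene LYZ had 0, 4.19 and 1.74 normalized counts with shlacZ, 337 and 492 with sh4, and 5.27 and 7.28 with sh8, while the other blood cell markers listed were not in the table and COL1A1 had 5.24 to 16.4 in any library. The part of these shifts in the changes of NFKB2, TNFAIP3, TRAF2 and TRAF3 was not tested.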

How the data were processed

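The authors depleted ribosomal RNA, made stranded libraries, trimmed reads with Cutadapt, aligned them with STAR to hg38 (GRCh38), quantified genes with Salmon and used DESeq2 (versions not given in the sources used here). The single deposited table holds normalized counts, namely counts divided by a size factor per library, and no gene with fewer than 10 reads over the 7 libraries. Of its values 100% were whole multiples of 1 read (tolerance 0.05 read), from which reads were recovered. Of 21305 genes, 4629 had no symbol, and 21281 identifiers (99.9%) were in GENCODE 44, the source of coordinates and lengths. RELA, NFKBIB, TNFAIP3 and BIRC3 share 40 to 126 exonic bases with a gene on the opposite strand. Whether counting used strand is not given in the sources used here.

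limma 3.58.1 (R 4.3.3) was run on log2(normalized count + 1) for genes with a mean of at least 10, two-sided, with a variance trend. Both hairpins together (n = 4) were compared with control in a fit with 2 levels, and single hairpins in a fit with 3 groups. Fold changes on this scale understate the change of low genes, and size factors scale away a change shared by most genes. The fits were tested on simulated data. Because the table was not declared as counts, negative binomial tests were not run. The genes and lists were chosen with earlier results of these data known. Named were all members, GRASLND, MAP3K14, CHUK, IKBKB, IKBKG, TRAF2, TRAF3 and BIRC2, up to 4 called genes per direction from each other list, and the 5 genes most like NFKB2. IL6, CXCL2, CXCL3, ICAM1, BCL2A1 and COL1A1 were named after their values were seen. Alternatives covered the pseudocount, minimum mean, scaling, trend, voom, replicate block, library sets and leaving out each library.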

Additional observations from a re-analysis of the deposited data

Results flagged for a closer look

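Both hairpins target the same RNA, so a gene whose level differed between sh4 and sh8 is worth a closer look. The differences below are sh4 minus sh8 on the log2 scale, from limma with adjusted p-values under 0.05, and in each of them the libraries of the hairpins did not overlap.

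Among the members only NFKB1 differed, by 0.93 (sh8 low). Of the upstream genes and regulators, TNFRSF12A differed by 1.56, IKBKE by 1.65, TANK by 0.93 and PELI1 by 0.70, all higher with sh4, and TRAF3 by -0.89. CD83, a target gene, differed by -1.57. Of the lineage genes, DCT differed by -2.30, TYRP1 by -1.54, MLANA by -1.01, SOX10 by -0.81, PMEL by -0.71 and MITF by -0.59 (limma adjusted p = 0.0415), all lower with sh4, and LYZ by 5.82. MITF, the melanocyte lineage factor, was named after its values were seen. NFKB2 (0.85) and RELB (1.02) had differences of like size that did not pass (limma adjusted p = 0.0585 and 0.135).

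Of these differences, those of DCT and TYRP1 passed without any 1 library (limma adjusted p at most 0.0322 over all alternatives). The others followed through the alternatives were lost without the second sh4 library (limma adjusted p from 0.0515 for LYZ to 0.174 for TNFRSF12A), and several also without an sh8 library.

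In a check of 38 genes for a library that stands apart among the 4 knockdown libraries, SOD2 had a gap of 0.837 of the range, from the first sh4 library (1219 normalized counts, against 1351 to 1377 in the other 3). Such a check flags about 1 in 20 values by chance when the 4 libraries come from a single group. Here they came from sh4 and sh8, so that rate need not hold.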

How the results depend on the processing

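Among the member results followed, direction held in all but 2 refits: for the hairpins together RELA ran from -0.11 (without the first shlacZ library) to 0.0897 and REL from -0.0078 (without the first sh4 library) to 0.0861 when a library was left out. For each hairpin and between the hairpins, only members with an unadjusted p under 0.05 were followed, so a kept direction was likely for them. Values near 0 that were not followed did change sign, such as RELB with sh8 (-0.0018, and 0.17 with the replicate block). The cause of these and the following changes was not tested. Members called for the hairpins together numbered 1 with upper quartile scaling (TNFAIP3) and 2 (NFKB1 and TNFAIP3) as the mean of both hairpins in the fit with 3 groups, and 0 to 1 when a library was left out. For sh4 they were 4 with scaling by library total (NFKBIA, TNFAIP3, NFKB2 and RELB) and 0 to 4 with a library left out (4 without the first shlacZ library, 0 without either sh4 library). For sh8 they were 0 with no variance trend and 0 to 3 with a library left out (3 without the first shlacZ library, 0 without either sh8 library). Between the hairpins they were 3 with only the libraries of the groups compared and 0 to 3 with a library left out. A hairpin left with 1 library is assumed to vary like the other groups. Of 1077 refits of 60 gene results, 951 kept direction and side of the threshold, 104 lost the call, 20 gained one and 2 changed sign. GRASLND for the hairpins together also lost its call with upper quartile scaling, no variance trend and the block (limma adjusted p = 0.0524, 0.0805 and 0.150). Scalings moved the median of all genes by less than 0.1.

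Same-numbered replicates did not deviate together in every pair (correlations from -0.0781 to 0.337), so the numbers are not taken as pairs. With the replicate number as a block, 2 members (NFKB1 and NFKB2) passed between the hairpins, and genes called for the hairpins together fell from 711 to 42. Depth limits RELB (18 to 74 reads) and BIRC3 (1 to 7 reads).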
